A study of Homo sapiens with 6 samples.

Results

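The zinc finger cluster at the distal end of the long arm of human chromosome 19 was described through 46 listed genes, 45 with ZNF or ZSCAN names and TRIM28, out of 56638 gene names counted. They were listed by name and position, with earlier results of these data known. The list is not complete: 5 tested zinc finger genes between its outermost members are not on it. The question asked of each member was whether it fell further than its chromosome as a whole. All 46 were found on chromosome 19 in GENCODE release 29, within a stretch of 98 annotated genes that runs from ZNF583 to TRIM28. The libraries came from HL60, a promyelocytic leukaemia line, in medium with 10% serum. SKI knockout HL60 cells, made with CRISPR/Cas9, gave 3 libraries, all of the line numbered 3. Cells carrying a CRISPR/Cas9 control gave the other 3, all of the line numbered 1. Each group was therefore 1 line, and an effect of the knockout and a difference between lines cannot be told apart. Nothing in the labels ties the replicates to separate cultures, so the tests weigh only the spread between libraries, which may be technical.

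Most of these genes encode proteins with arrays of C2H2 zinc fingers, which read DNA sequence, and most of the proteins also carry a KRAB domain. The KRAB domain recruits TRIM28, also called KAP1, a scaffold that brings in the histone methyltransferase SETDB1, HP1 proteins and the NuRD complex and silences the bound sites, many of them in transposable elements. The family grew by tandem duplication, so related genes stand side by side. Promoters of several members, among them ZNF154, ZNF671, ZNF471, ZNF135, ZNF132 and ZSCAN18, are known for DNA methylation in tumours. SKI is a co-repressor that binds SMAD proteins.

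Library totals lay between 47930276 and 56280696 counts in the knockout and between 49684362 and 58553247 counts in the control. In CPM, counts scaled to library size, SKI itself stood at 59.6, 40.7 and 42 CPM in the knockout libraries, against 63.9, 83.5 and 88.5 CPM in the control libraries (log2 fold change -0.73, SE 0.19, adjusted p = 0.0282), lower but present. Genes of chromosome 19 outside the list were lower in the knockout: over 667 of them the median log2 difference from the control mean was -0.54, -0.55 and -0.37 in knockout replicates 1, 2 and 3, and between -0.03 and 0.03 in the control libraries. Of 10 myeloid markers 8 exceeded 1 CPM in every library, and ELANE, a defining promyelocyte gene, was at 0, 0 and 0 CPM in the knockout and 0.0418, 0.0679 and 0 CPM in the control. PRTN3, the other marker not above 1 CPM throughout, was at 0.235, 1.325 and 0.324 CPM in the knockout and 9.37, 14.29 and 9.99 CPM in the control. The summed myeloid markers ranged from 3299 to 9500 CPM in the knockout and from 12806 to 15164 CPM in the control. MPO made up most of this sum, at 3472, 8538 and 2562 CPM in the knockout and 12640, 13990 and 11630 CPM in the control. SRGN overlapped between the groups, at 255.7, 514.5 and 232.3 CPM in the knockout and 364.9, 343.8 and 286.6 CPM in the control. Of 26 markers of other cell types 22 were under 1 CPM in every library. Of the other 4, KRT8 was at 6.88, 4.68 and 9.53 CPM in the knockout and 5, 2.67 and 3.42 CPM in the control, and CD79A at 2.77, 2.05 and 5.87 CPM in the knockout and 0.92, 0.967 and 1.39 CPM in the control. CD8A was at 1.66, 1.28 and 1.2 CPM in the knockout and 1.4, 0.849 and 1.67 CPM in the control, and ITGA2B at 0.741, 0.476 and 0.419 CPM in the knockout and 0.69, 0.832 and 1.09 CPM in the control. The part of these markers in the results was not tested.

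The promoters of ZNF551, ZNF304 and ZNF667 are shown because these 3 genes are the members called beyond the common shift of the chromosome. Each window runs from 250 bases before to 50 bases after an annotated start, from RefSeq on GRCh38.p14, 5′ to 3′ on the strand of the gene, with CG dinucleotides, the sites of DNA methylation, in capitals. The ZNF551 window is chr19:57681727-57682026 on the plus strand, the ZNF304 window chr19:57351021-57351320 on the plus strand and the ZNF667 window chr19:56477296-56477595 on the minus strand.
ZNF551: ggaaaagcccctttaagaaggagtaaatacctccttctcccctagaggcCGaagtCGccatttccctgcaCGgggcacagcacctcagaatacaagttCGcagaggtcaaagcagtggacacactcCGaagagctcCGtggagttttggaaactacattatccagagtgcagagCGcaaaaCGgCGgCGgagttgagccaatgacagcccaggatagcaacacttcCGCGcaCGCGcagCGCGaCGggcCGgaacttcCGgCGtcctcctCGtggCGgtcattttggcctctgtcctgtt
ZNF304: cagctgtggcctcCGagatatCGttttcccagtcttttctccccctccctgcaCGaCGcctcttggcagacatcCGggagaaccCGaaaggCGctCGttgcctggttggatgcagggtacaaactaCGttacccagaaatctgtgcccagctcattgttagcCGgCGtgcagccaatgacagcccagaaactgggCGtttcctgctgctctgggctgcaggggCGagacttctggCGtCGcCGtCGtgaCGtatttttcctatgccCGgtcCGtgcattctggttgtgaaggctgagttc
ZNF667: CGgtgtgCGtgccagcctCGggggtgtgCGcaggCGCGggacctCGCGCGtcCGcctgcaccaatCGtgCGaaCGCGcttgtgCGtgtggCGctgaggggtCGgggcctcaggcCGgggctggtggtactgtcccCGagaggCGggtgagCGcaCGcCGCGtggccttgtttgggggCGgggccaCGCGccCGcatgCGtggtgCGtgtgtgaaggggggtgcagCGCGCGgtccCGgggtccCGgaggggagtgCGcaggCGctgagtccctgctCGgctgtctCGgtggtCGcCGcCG
They hold 22, 20 and 42 CG dinucleotides. The median was 23.5 over 46 windows of the 41 members that matched the table, 20 over 239 windows of other zinc finger genes of chromosome 19 and 14 over all 35116 windows. ZNF417, ZNF471, ZNF552, ZNF211 and TRIM28 had no window matched. The 17-base run agccaatgacagcccag is the longest that the ZNF551 and ZNF304 windows share, and those 2 are the only windows of all 35116 that hold it. This run was looked for after the sequences had been seen.

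Motifs were searched on both strands of the same windows; none of them contains another, and a match describes sequence only. CCGGAAG, the core read by ETS family factors, was in 26 of the 46 windows of members (56.5%), in 34.7% of the windows of other chromosome 19 zinc finger genes and in 10.3% of all windows. GGGCGG, the SP1 box, was in 67.4% of members' windows, 64% of the windows of other chromosome 19 zinc finger genes and 45% of all windows. In the same order of sets, ATGGCGGC, read by YY1, was in 10.9%, 3.35% and 3%, and the E-box CACGTG in 10.9%, 3.77% and 7.26%. The palindromic NRF1 motif was in 0%, 3.77% and 1.24%, and the palindromic SMAD-binding sequence GTCTAGAC in 0%, 0.418% and 0.202%. Of the 3 windows shown, that of ZNF667 holds GGGCGG, that of ZNF551 holds CCGGAAG, and that of ZNF304 holds none of the 6 motifs. Windows of members at or under 0.1 RPKM (reads per kilobase of gene length, scaled to library size) in the control had a median of 26 CG dinucleotides, and those of the other members a median of 23.

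Expression over the cluster covered a wide range. TRIM28 was the most abundant member per length, at 111 ± 9.86 RPKM in the knockout and 191 ± 16.7 RPKM in the control (SD, n = 3 each). ZNF324 came next by control level, at 4.71 ± 1.31 RPKM in the knockout and 7.82 ± 0.778 RPKM in the control (SD, n = 3 each), and then ZNF274, at 5 ± 1.19 RPKM in the knockout and 7.62 ± 0.592 RPKM in the control (SD, n = 3 each). ZNF324 and ZNF274 do not differ in level beyond their spread. In the control 27 members exceeded 1 RPKM and 10 were at or under 0.1 RPKM.

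**Figure D1:**
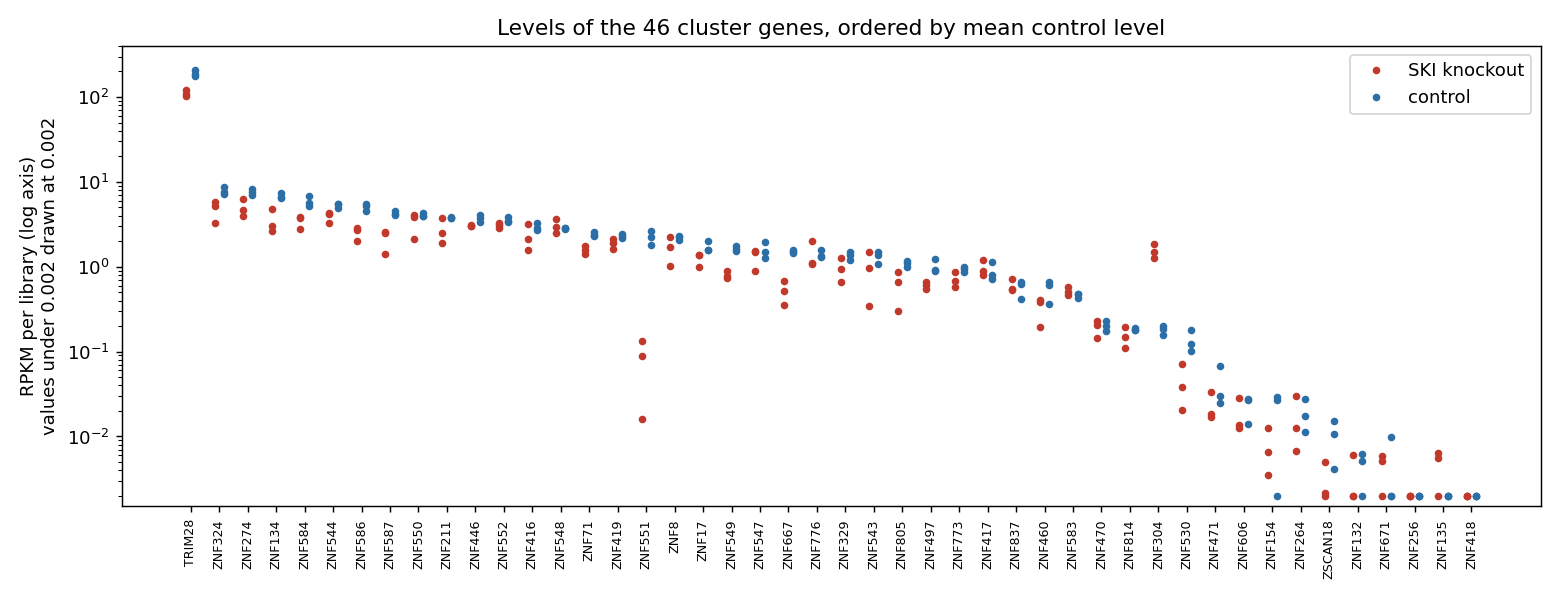
RPKM of each of the 46 cluster genes in each library (log axis), SKI knockout left of control, ordered by mean control level. TRIM28 stands above all others, 10 genes are at or under 0.1 RPKM in the control, and ZNF551 and ZNF304 have groups far apart.

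The near-silent end of the cluster included genes known for methylated promoters. Of the 46 members 38 had enough counts to be tested. The 8 others, ZNF264, ZNF154, ZNF671, ZNF418, ZNF256, ZNF135, ZSCAN18 and ZNF132, had between 0 and 26 counts in the 6 libraries together. ZNF418 and ZNF256 had no count in any library, which with a limit of 3 counts allows up to 0.0621 CPM in the knockout and up to 0.0628 CPM in the control, for counting error only. ZNF135 had 2, 2 and 0 counts in the knockout libraries and 0, 0 and 0 in the control libraries. ZSCAN18, a SCAN domain gene, had 1, 2 and 0 counts in the knockout and 6, 2 and 5 in the control. ZNF154 had 4, 1 and 2 counts in the knockout and 0, 10 and 9 in the control. A difference between the groups was not detectable at this depth for these 8 genes. ZNF471 was barely above them, at 0.156 ± 0.0622 CPM in the knockout and 0.276 ± 0.158 CPM in the control (SD, n = 3 each), and did not pass the test (adjusted p = 0.334).

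The cluster was lower in the knockout by about as much as the rest of its chromosome. In bulk RNA, fewer cells that express a gene and less RNA per cell cannot be told apart. In edgeR's quasi-likelihood test of knockout against control, with Benjamini-Hochberg adjustment over 16340 genes and a threshold of 0.05, 11 of the 38 tested members were lower and 1 was higher. Of all tested genes 5.63% were lower and 6.19% higher (11.8% in either direction). The members' shares were 28.9% lower and 2.63% higher, and those of the rest of chromosome 19 were 28.9% lower (269 of 932) and 5.15% higher. The median log2 fold change was -0.46 over the members, -0.44 over the rest of chromosome 19 and -0.01 over all tested genes. It was below 0 for 33 members (86.8%), for 79.1% of the rest of chromosome 19 and for 50.8% of all tested genes. The groups' CPM did not overlap for 20 members lower and 1 higher, or 52.6% and 2.63%, against 16.1% and 16% of all tested genes (32.2% in either direction) and 47.9% and 6.87% of the rest of chromosome 19. The count of lower members was 7 without control replicate 1, 7 when control replicate 2 was omitted and 4 when control replicate 3 was. The median was -0.68 without knockout replicate 1 and -0.29 without knockout replicate 3.

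**Figure D2:**
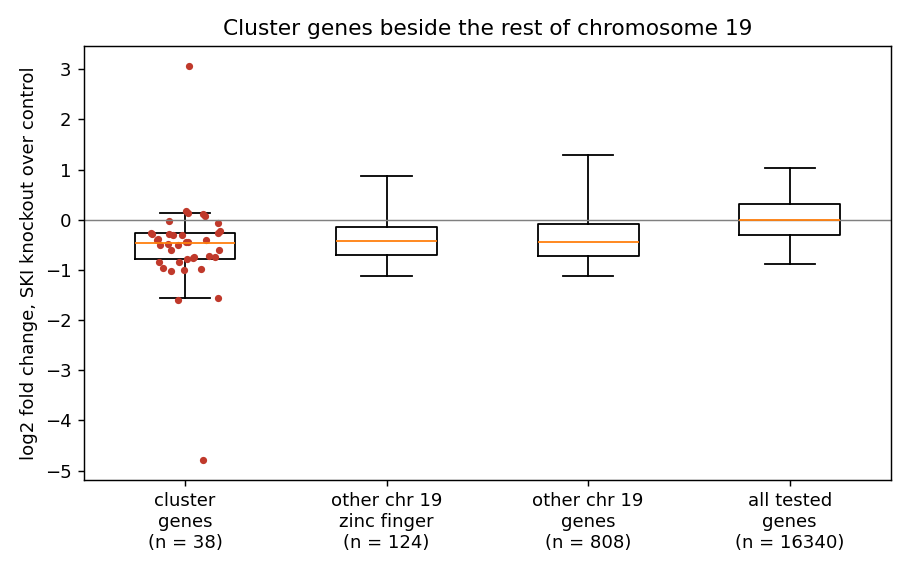
Log2 fold changes, SKI knockout over control, of the 38 tested cluster genes, other zinc finger genes and other genes of chromosome 19, and all 16340 tested genes. The cluster's median of -0.46 sits near that of the other chromosome 19 genes, with ZNF304 and ZNF551 far outside.

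Whether a member moved beyond its chromosome was tested by setting, for each library, the median change of the rest of chromosome 19 as the expected value. In this centred fit 2 members were lower, ZNF551 and ZNF667, and 1 was higher, ZNF304. Of all tested genes, each centred on its own chromosome, 3.41% were lower and 5.16% higher (8.57% in either direction), and the members' shares were 5.26% and 2.63%. The other 9 lower members did not pass. Centred log2 fold changes were below 0 for 16 members and above 0 for 22, with a median of 0.04, and 19 members lay within 0.25 of the shift. Of the 932 genes of the rest of chromosome 19, 428 were below 0, 504 above and 400 within 0.25. Of all 16340 tested genes, 7367 were within 0.25.

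**Figure D3:**
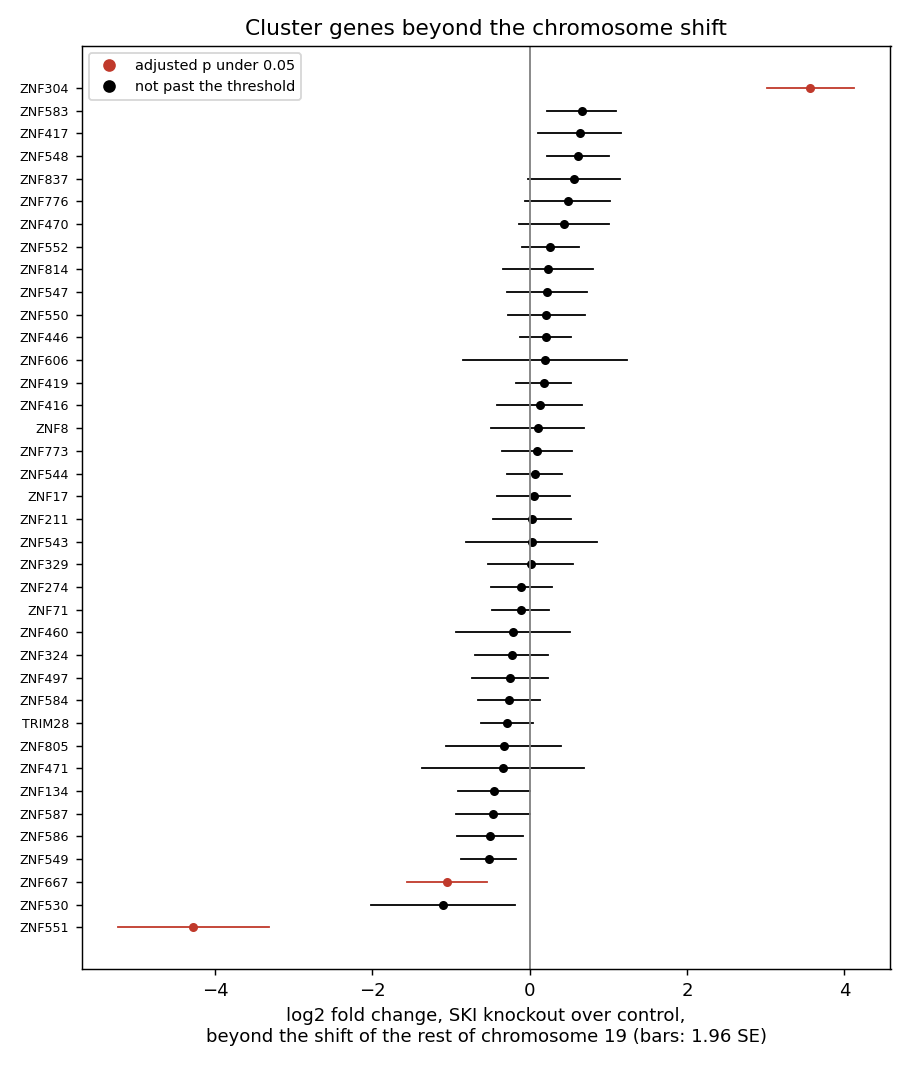
Log2 fold change of each tested cluster gene, SKI knockout over control, after removal of the shift of the rest of chromosome 19, with bars for the interval from the standard error. ZNF304 at 3.57, ZNF667 at -1.05 and ZNF551 at -4.27 passed the threshold, and the others lie between -1.10 and 0.66.

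ZNF551, a KRAB zinc finger gene, was close to lost. It stood at 0.632, 0.414 and 0.0762 CPM in the knockout libraries, against 8.39, 10.5 and 12.4 CPM in the control libraries. All knockout libraries were far below all control libraries, and knockout replicate 3, with 4 counts, was the lowest. The means were 0.374 ± 0.28 CPM in the knockout and 10.4 ± 2.01 CPM in the control (SD, n = 3 each), a 27.6-fold decrease (log2 fold change -4.78, SE 0.48, adjusted p = 0.00023). ZNF551 was at -4.27 beyond the shift (SE 0.49, adjusted p = 0.000489). Leaving out knockout replicate 1 gave -5.41, and -4.94 beyond the shift. The authors' deposited table lists ZNF551 lower too, at a log2 fold change -2.51 with adjusted p = 3.53e-08. The deposited fold change was smaller in size than the one found here for every member called here, ZNF530 (-1.14) and ZNF304 (2.80) among them. The reason was not tested. At adjusted p under 0.05 the deposited table lists 13 tested members lower: the 11 lower here, ZNF274 and ZNF497. The nearest tested members on either side did not pass the test: ZNF211 had a log2 fold change -0.48 (adjusted p = 0.219) and ZNF776 -0.02 (adjusted p = 0.972). Another annotated gene, AC003006.1, shares exons with ZNF551 and ZNF776 on their strand, and 3.22% of the 50-base stretches of ZNF551 transcripts occur in it.

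ZNF304 went the other way. In human colorectal cancer cells its protein is known for recruiting TRIM28, SETDB1 and DNMT1 to silence genes. The gene stood at 8.44, 6.83 and 5.79 CPM in the knockout libraries, against 0.732, 0.916 and 0.845 CPM in the control libraries. The groups did not overlap, and every knockout library was several times every control library. The means were 7.02 ± 1.33 CPM in the knockout and 0.831 ± 0.0929 CPM in the control (SD, n = 3 each), an 8.41-fold increase (log2 fold change 3.07, SE 0.26, adjusted p = 7.98e-05), and the gene was at 3.57 beyond the shift (SE 0.28, adjusted p = 4.91e-05). Per length ZNF304 averaged 1.52 ± 0.289 RPKM in the knockout and 0.18 ± 0.0202 RPKM in the control (SD, n = 3 each), and its control level was the 35th of the 46. The authors' deposited table lists it at a log2 fold change 2.80. The genes on its sides, ZNF543 and ZNF547, had log2 fold changes -0.49 and -0.26 and did not pass (adjusted p = 0.471 and 0.571). No 50-base stretch of ZNF304 transcripts occurs, in the same orientation, in transcripts of another annotated gene. The opposite strand was not compared, and AC005261.2 overlaps an exon there, so reads of the 2 genes may not have been told apart.

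ZNF667, a KRAB zinc finger gene studied in rat (as Mipu1) for its induction by ischaemia, lay near the proximal end of the cluster. Its level was 4.75, 6.23 and 3.22 CPM in the knockout libraries, against 13.1, 14.4 and 14.1 CPM in the control libraries. Each knockout library was below each control library. The means were 4.73 ± 1.5 CPM in the knockout and 13.9 ± 0.686 CPM in the control (SD, n = 3 each), a 2.94-fold decrease (log2 fold change -1.55, SE 0.24, adjusted p = 0.00241), and ZNF667 was at -1.05 beyond the shift (SE 0.26, adjusted p = 0.0283). The call beyond the shift was lost without knockout replicate 1 (-1.07, adjusted p = 0.102), without control replicate 1 (-1.08, adjusted p = 0.0527), without control replicate 2 (-1.01, adjusted p = 0.0984) and without control replicate 3 (-1.06, adjusted p = 0.101). ZNF667-AS1, an antisense gene whose exons overlap those of ZNF667, was at 3.2, 2.63 and 1.75 CPM in the knockout and 6.63, 5.8 and 6.41 CPM in the control (log2 fold change -1.31, SE 0.26, adjusted p = 0.00778). Strand use in the counting was not given in the sources used here, so reads of this pair may not have been told apart. ZNF583, the member before ZNF667 in the order, was at 4.68, 3.77 and 4.1 CPM in the knockout and 3.85, 3.45 and 3.87 CPM in the control, with overlapping groups and a log2 fold change 0.17 (adjusted p = 0.666).

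**Figure D4:**
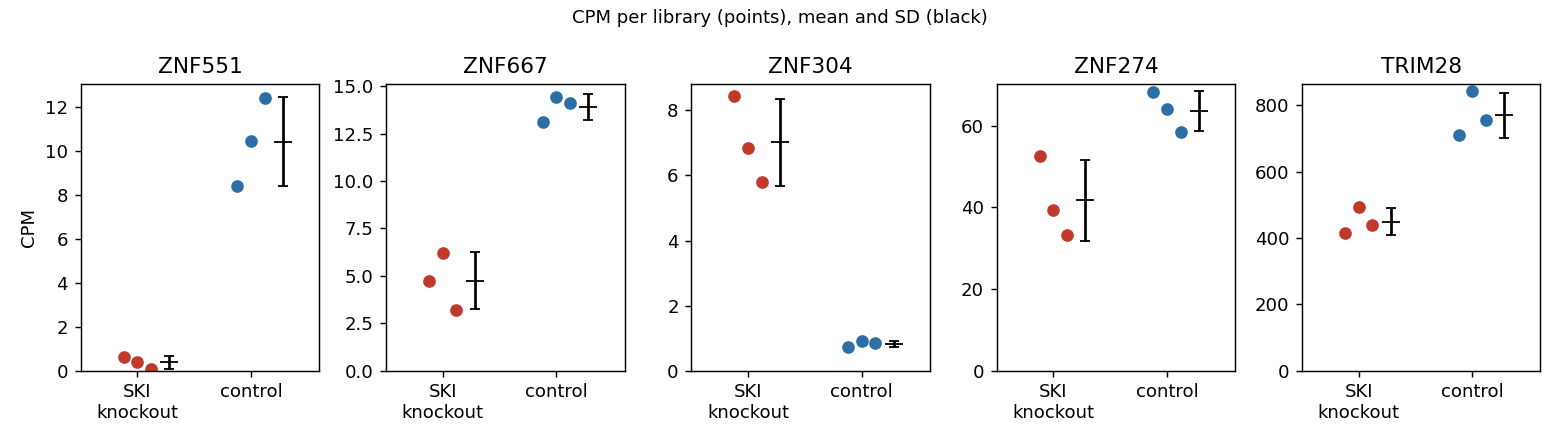
CPM in each library (points, SKI knockout left of control) with mean and SD for ZNF551, ZNF667, ZNF304, ZNF274 and TRIM28. ZNF304 is higher in the knockout and the other 4 are lower, and the groups do not overlap in any of the 5 genes.

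TRIM28, the shared co-repressor, was among the 9 lower members that did not pass beyond the shift. Its level was 415, 493 and 440 CPM in the knockout libraries, against 711, 844 and 756 CPM in the control libraries. The groups did not overlap, and the difference was 1.71-fold (log2 fold change -0.78, SE 0.16, adjusted p = 0.0107). It was at -0.29 beyond the shift (SE 0.17, adjusted p = 0.326), with an interval from -0.62 to 0.04. The call before centring was lost without control replicate 2 (-0.71, adjusted p = 0.0691) and without control replicate 3 (-0.79, adjusted p = 0.053).

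ZNF549 and ZNF586 were 2 more of these lower members, and each overlaps a member on the opposite strand. ZNF549 was at 8.29, 6.91 and 7.2 CPM in the knockout libraries, against 14.9, 14.1 and 16.3 CPM in the control libraries (log2 fold change -1.01, SE 0.18, adjusted p = 0.00447), and at -0.52 beyond the shift (SE 0.18, adjusted p = 0.0965). Its partner ZNF550 was at 19.7, 20.5 and 10.9 CPM in the knockout and 20.3, 20.3 and 22.1 CPM in the control, with overlapping groups and no call (log2 fold change -0.30, SE 0.23, adjusted p = 0.436). ZNF586 was at 9.43, 8.75 and 6.54 CPM in the knockout libraries, against 14.7, 17.9 and 17 CPM in the control libraries (log2 fold change -1.01, SE 0.20, adjusted p = 0.00751), and at -0.51 beyond the shift (SE 0.21, adjusted p = 0.167). Its partner ZNF552 was at 9.25, 9.83 and 8.46 CPM in the knockout and 11.7, 10.2 and 10.5 CPM in the control, lower in every knockout library but not called (log2 fold change -0.23, SE 0.18, adjusted p = 0.441). In both pairs the gene on the plus strand passed and the one on the minus strand did not; the difference within a pair was not tested.

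ZNF587 and ZNF417 are near-copies known in human cells for silencing HERV-K elements. ZNF587 was at 18.5, 18.8 and 10.5 CPM in the knockout libraries, against 29.6, 30.7 and 33.6 CPM in the control libraries (log2 fold change -0.97, SE 0.22, adjusted p = 0.0145). ZNF417 was at 5.01, 3.77 and 3.35 CPM in the knockout and 3.33, 3 and 4.74 CPM in the control, with overlapping groups and no call (log2 fold change 0.13, SE 0.26, adjusted p = 0.79). Of the 50-base stretches of ZNF417 transcripts 37.6% occur in another gene, ZNF587 among them, and of those of ZNF587 18.8% do, so both values are uncertain. In all, 9 members shared at least 10% of these stretches with another gene, among them ZNF324 (33.5%) and ZNF446 (26.1%), whose exons overlap on the same strand. ZNF587 lost its call without control replicate 3 (-0.92, adjusted p = 0.0747).

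ZNF134 was at 18, 11.4 and 10 CPM in the knockout libraries, against 24.9, 24.2 and 27.7 CPM in the control libraries (log2 fold change -0.96, SE 0.22, adjusted p = 0.016) and lost its call without control replicate 3 (-0.90, adjusted p = 0.0809). ZNF530 was a low-level gene at 0.361, 0.103 and 0.191 CPM in the knockout libraries, against 0.9, 0.509 and 0.616 CPM in the control libraries (log2 fold change -1.59, SE 0.47, adjusted p = 0.0467). Its groups did not overlap, and it was at -1.10 beyond the shift (SE 0.47, adjusted p = 0.171), as far from the shift as ZNF667 but with a wider error. Without knockout replicate 1 ZNF530 was at -1.72 beyond the shift (adjusted p = 0.102). The last 3 lower members were ZNF584, ZNF324, known for a role in entry to the cell cycle, and ZNF71, with log2 fold changes -0.76, -0.73 and -0.61 (adjusted p = 0.0211, 0.0451 and 0.0413). ZNF584 was at 14.3, 13.7 and 10.4 CPM in the knockout and 20.9, 19.4 and 24.9 CPM in the control, ZNF324 at 19.6, 21.8 and 12.3 CPM in the knockout and 28.8, 33 and 27.3 CPM in the control and ZNF71 at 9.85, 10.7 and 8.63 CPM in the knockout and 14.2, 14.7 and 15.7 CPM in the control, without overlap.

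These last calls were lost when single libraries were left out, and each such fit had fewer samples. ZNF530 was not called without knockout replicate 2 (adjusted p = 0.102), knockout replicate 3 (0.0722) or control replicates 1, 2 or 3 (0.149, 0.0773 and 0.127). ZNF71 was not called without knockout replicates 1 or 3 (adjusted p = 0.0984 and 0.0747) or control replicates 1, 2 or 3 (0.102, 0.122 and 0.148). For ZNF324 the same 5 omissions gave adjusted p = 0.0936, 0.0617, 0.0902, 0.16 and 0.107. ZNF584 lost its call without control replicate 1 (adjusted p = 0.0547) or 3 (0.111). The calls of ZNF551, ZNF304, ZNF667, ZNF549 and ZNF586 before centring held under each of the 13 alternatives tried.

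ZNF274, which in human cells directs SETDB1 and TRIM28 to the 3′ ends of zinc finger genes, lay at the edge of the threshold. It stood at 52.5, 39.4 and 33.2 CPM in the knockout libraries, against 68.2, 64.1 and 58.3 CPM in the control libraries, without overlap. It did not pass (log2 fold change -0.61, SE 0.18, adjusted p = 0.05004), and was at -0.11 beyond the shift (SE 0.20, adjusted p = 0.778). It passed without knockout replicate 1 (-0.80, adjusted p = 0.0267), in DESeq2's Wald test (-0.60, adjusted p = 0.0268) and in limma-voom (-0.63, adjusted p = 0.045). In the authors' deposited table ZNF274 is lower too, at -0.55 with adjusted p = 0.0387.

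The members nearest to the shift were ZNF329, ZNF543, ZNF211, ZNF17, ZNF544 and ZNF773, with centred log2 fold changes between 0.01 and 0.09. The interval of ZNF544 ran from -0.29 to 0.41 and that of ZNF543 from -0.81 to 0.86, so a difference of those sizes from the chromosome was not detectable. ZNF544 was at 29.1, 29.7 and 22.9 CPM in the knockout and 38.1, 38 and 34.3 CPM in the control, without overlap. ZNF8, whose mouse counterpart is known to bind SMAD1, was at 4.99, 3.75 and 2.25 CPM in the knockout and 4.54, 5.09 and 4.95 CPM in the control, overlapping, and its centred value of 0.10 had an interval from -0.50 to 0.69. On the upper side, ZNF548 was at 16.9, 13.7 and 11.6 CPM in the knockout and 13, 13.1 and 12.8 CPM in the control, overlapping, and at 0.62 beyond the shift (SE 0.20, adjusted p = 0.0817). Without knockout replicate 3 ZNF548 passed beyond the shift (0.79, adjusted p = 0.0134). ZNF583 and ZNF417 were at 0.66 and 0.63 beyond the shift and did not pass (adjusted p = 0.092 and 0.174).

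The knockout libraries were not alike over the cluster. The members' median log2 difference from the control mean was -0.24, -0.43 and -0.79 in knockout replicates 1, 2 and 3, while in the control libraries it lay between -0.04 and 0.03. The rest of chromosome 19 had its smallest decrease in knockout replicate 3, where the members had their largest. Within that rest, the other zinc finger genes ran in the same order as the members, with medians of -0.24, -0.45 and -0.56. Knockout replicate 3 was the lowest knockout library for 29 of 38 members (76.3%), for 54.8% of the other chromosome 19 zinc finger genes, for 25.2% of the rest of chromosome 19 and for 38.7% of all tested genes. Summed over the tested members other than TRIM28, the level was 354, 308 and 242 CPM in the knockout libraries, against 442, 443 and 447 CPM in the control libraries. The control libraries lay close together and the knockout libraries did not. ZNF543 showed this pattern, at 5.46, 3.58 and 1.28 CPM in the knockout and 5.06, 5.52 and 3.96 CPM in the control, and so did ZNF805, at 1.66, 2.24 and 0.762 CPM in the knockout and 2.51, 2.99 and 2.84 CPM in the control. Knockout replicate 3 also had the lowest TMM scaling factor of the 6 libraries (0.933) and the fewest genes with a count (23295), and the part of these in the pattern was not tested.

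**Figure D5:**
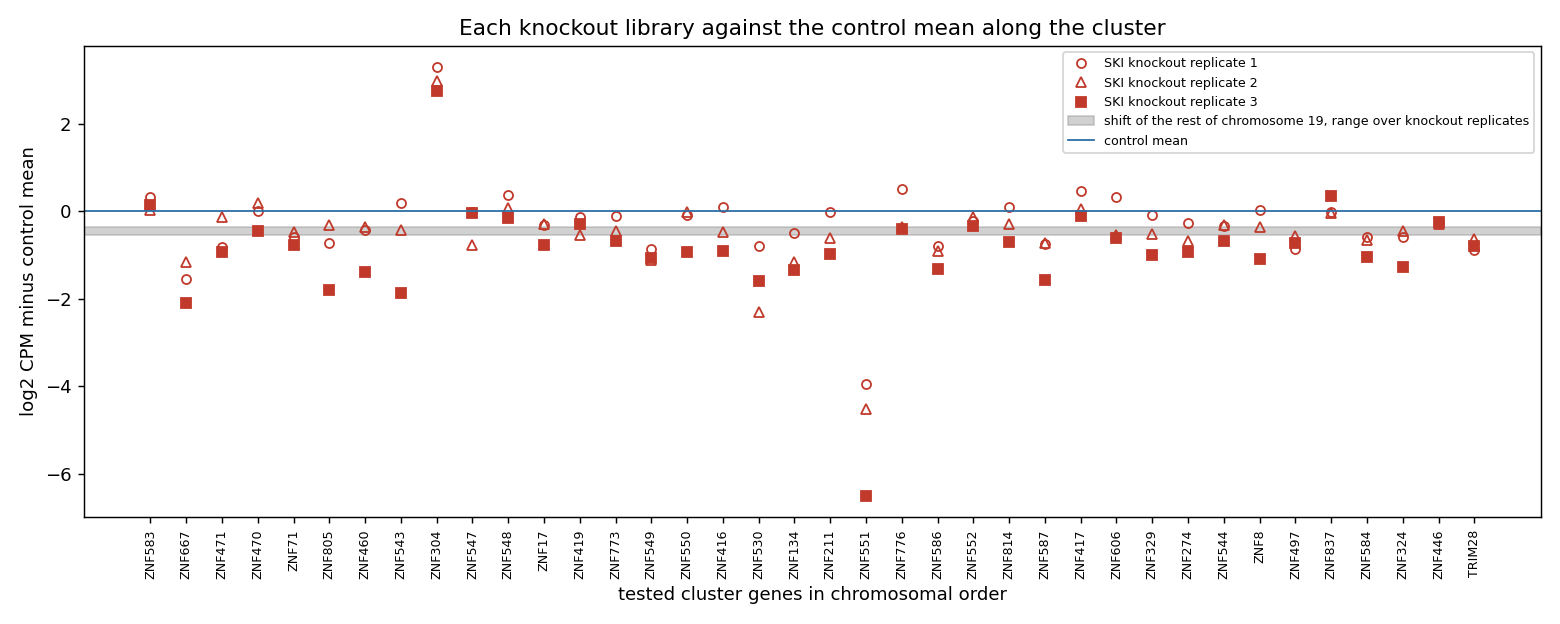
Log2 CPM of each knockout library minus the control mean for the 38 tested cluster genes in chromosomal order, with a band for the shift of the rest of chromosome 19 in the knockout libraries (-0.55 to -0.37). Knockout replicate 3 is the lowest of the knockout libraries for 29 genes. Many genes leave the band in some library, and ZNF304 and ZNF551 lie furthest from it in every knockout library. ZNF667 lies below it in each, as do some other genes.

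Between ZNF583 and TRIM28 lay 52 genes that are not on the list, of which 14 were tested. The test called 5 of the 14 lower (35.7%), against 5.63% of all tested genes and 28.9% of the rest of chromosome 19: ZNF667-AS1, A1BG, SLC27A5, ZNF749 and ZNF324B. The groups did not overlap for 10 of the 14, all lower in the knockout (71.4%), and overlapped for 4. Of all tested genes 16.1% were lower without overlap, and of the rest of chromosome 19 47.9%. All 14 had a log2 fold change below 0, with a median of -0.68. A1BG, which encodes a plasma glycoprotein, was at 0.199, 0.186 and 0.324 CPM in the knockout and 0.921, 0.696 and 0.845 CPM in the control (log2 fold change -1.78, SE 0.38, adjusted p = 0.0107), and was the only one of the 14 past the threshold beyond the shift (-1.31, adjusted p = 0.0465). SLC27A5, a bile acid-CoA ligase gene, was at 8.17, 9.69 and 12.7 CPM in the knockout and 19.7, 15.7 and 17.4 CPM in the control (log2 fold change -0.79, SE 0.20, adjusted p = 0.0257). ZNF749 had a log2 fold change -0.85 (adjusted p = 0.0373) and ZNF324B -0.61 (adjusted p = 0.0484).

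The proteins through which KRAB zinc finger proteins act, with the DNA methylation enzymes, were listed as 47 genes, of which 45 were tested. None was higher and 6 were lower (13.3%), where 5.63% of all tested genes were lower and 6.19% higher, with a median log2 fold change of -0.17 over the list: TRIM28, the NuRD genes MBD3 and GATAD2A, the maintenance methyltransferase gene DNMT1, UHRF1, which directs DNMT1 to DNA, and the histone methyltransferase gene EHMT1. At an unadjusted p under 0.05 in edgeR, 4 genes of the list were higher and 10 lower (8.89% and 22.2%), against 14.1% and 13% of all tested genes. All 5 tested genes of the list on chromosome 19 were among the 6 called lower, and EHMT1 lies on chromosome 9. MBD3 had a log2 fold change -0.85 (adjusted p = 0.00447), UHRF1 -0.96 (0.00623), GATAD2A -0.72 (0.0162), DNMT1 -0.71 (0.0197) and EHMT1 -0.76 (0.00832). SETDB1 was at 95.2, 109 and 91.1 CPM in the knockout libraries, against 103, 102 and 99.6 CPM in the control libraries, with overlapping groups and no call (log2 fold change -0.05, SE 0.14, adjusted p = 0.874). With each gene centred on its own chromosome, none of the 5 on chromosome 19 passed. In that fit 3 of the 45 were lower and none higher, where 3.41% of all tested genes were lower and 5.16% higher. The 3 were EHMT1 (-0.54, adjusted p = 0.0387), EHMT2 (-0.76, adjusted p = 0.0106) and MORC2 (-0.70, adjusted p = 0.0214). Before centring EHMT2 and MORC2 had log2 fold changes -0.33 and -0.47 and did not pass; they lie on chromosomes 6 and 22, whose genes were shifted upwards, by up to 0.44 and 0.24 in a knockout library.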

How the data were processed

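Libraries of 6 HL60 samples were made with a stranded kit for mRNA, as the protocols state. TopHat2, featureCounts of Subread, DESeq, DESeq2 and build hg19 appear in the submitters' processing notes; versions, annotation and strand setting were not stated there. Raw counts per gene, with gene lengths, are as deposited by the authors. A second deposited table holds the authors' log2 fold changes and adjusted p-values, printed only where named. The members and lists were chosen with earlier results of these data known.

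Knockout was tested against control with edgeR 4.0.16 in R 4.3.3 (filterByExpr, TMM, quasi-likelihood F test, group as the only term, Benjamini-Hochberg over 16340 genes), with standard errors derived from F. The centred fit added to each library's offset the median log2 CPM difference (prior count 2) from the control mean, over genes of the chromosome with average log2 CPM above 2 and without the members. Per-library medians used log2 of CPM plus 0.1. RPKM was computed from counts and deposited lengths. Chromosome and order came from GENCODE 29 (GRCh38) by symbol or RefSeq synonym, with 21053 of 56638 names unmatched; no coordinates of counted genes are given. Members could all be named, and other genes by smallest p within their list. Alternatives were DESeq2 1.42.0 size factors and Wald test, limma-voom (limma 3.58.1), library totals, no filter, a CPM of 1 in 3 libraries, a replicate block, omission of each library, and other genes setting the shift. Scripts were tested on simulated data.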

Additional observations from a re-analysis of the deposited data

How the results depend on the processing

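Beyond the shift, the calls of ZNF551 and ZNF304 held under all 15 alternatives (-4.94 to -3.75 and 3.39 to 3.74), and that of ZNF667 under 11 of 15. With library totals 7 members were lower, ZNF530, ZNF71, ZNF324 and ZNF584 losing their calls. With no filter 1630 genes were higher. ZNF548 joined ZNF304, making 2 members higher beyond the shift, with no filter and when the shift was set by the 10 non-member genes between the outermost members. The cause was not tested. With each library left out in turn, 440 to 1410 genes were higher and 300 to 1078 lower, 4 to 10 members were lower and 1 higher, 1 to 2 members were lower and 1 to 2 higher beyond the shift, and the members' median ran from -0.68 to -0.29; each such fit had fewer samples. No single member reversed its direction where it was called.

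Same-numbered libraries had correlations of deviations from the group means of -0.17, 0.42 and -0.09, and differently numbered ones between -0.51 and 0.54. Deviations within a group of 3 libraries sum to 0, so these correlations cannot decide whether the numbers pair the samples. With the replicate block 11 members were lower and 1 higher, ZNF274 in place of ZNF71, and 1103 genes were higher and 1004 lower. Depth limits the 8 untested members.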

Other observations

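Of 124 tested zinc finger genes of chromosome 19 outside the list, 24 were lower and 8 higher in the knockout (19.4% and 6.45%). Of all tested genes 5.63% were lower and 6.19% higher, so the share higher was near that of all genes. Beyond the shift none was lower and 9 were higher (7.26%), against 3.41% and 5.16% of all tested genes, each centred on its own chromosome. ZNF614 was at 2.91, 2.5 and 1.83 CPM in the knockout libraries, against 0.105, 0.0679 and 0.0528 CPM in the control libraries (log2 fold change 4.99, SE 0.41, adjusted p = 7.39e-05). ZFP30 was at 2.28, 1.59 and 1.73 CPM in the knockout and 0.251, 0.17 and 0.0705 CPM in the control (log2 fold change 3.52, SE 0.42, adjusted p = 0.000733). ZNF83 was at 11.3, 11.2 and 10.4 CPM in the knockout and 4.39, 4.75 and 4.09 CPM in the control (log2 fold change 1.31, SE 0.19, adjusted p = 0.00173), and ZNF577 at 1.5, 1.01 and 1.03 CPM in the knockout and 0.565, 0.356 and 0.299 CPM in the control (log2 fold change 1.55, SE 0.36, adjusted p = 0.0175). In each of these 4, as in ZNF304, every knockout library was above every control library. Among the lower ones, ZNF574, ZNF266, ZNF561 and ZNF331 had log2 fold changes -0.91, -0.83, -0.90 and -1.34 (adjusted p = 0.00423, 0.00712, 0.00732 and 0.0116). The lowest log2 fold change among these 124 genes was -1.52, against -4.78 for ZNF551.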
